A study of Mus musculus with 6 samples.

Results

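The amino acid transporter families were taken as every protein-coding gene of the deposited count table whose symbol begins with Slc1a, Slc3a, Slc6a, Slc7a, Slc36a, Slc38a or Slc43a. This gave 64 genes of the 54532 in the table, with 7 in Slc1a, 2 in Slc3a, 21 in Slc6a, 16 in Slc7a, 4 in Slc36a, 11 in Slc38a and 3 in Slc43a. Slc7a6os entered by its symbol alone. It lies beside Slc7a6 on the opposite strand and is not a carrier, so it is named apart where it matters. RNA came from the gastrocnemius, a calf muscle, of C57BL/6J mice aged 3 months. The 3 libraries titled MP came from animals with the Mck cre driver and a transgene named Tg Glut1-Hk2-Pfkfb3, and the 3 titled Ctrl from animals with Mck cre alone. Mck is the muscle creatine kinase promoter, active in striated muscle. Both groups carried the driver and both drank water with 0.2% doxycycline from 4 weeks of age. Whether each library came from its own mouse is not stated, so every p-value reflects only how these 6 libraries vary, which may be technical.

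Muscle is the largest store of amino acids in the body, and carriers in the fibre membrane set how fast each kind enters or leaves. Slc38 carriers bring in glutamine and other neutral amino acids with sodium, and glutamine is the main nitrogen carrier that muscle releases. Slc7 proteins are of 2 kinds, cationic carriers that take up arginine and lysine alone, and light chains that reach the membrane only when bound to a glycoprotein heavy chain of the Slc3 family. Slc43 carriers let branched-chain and aromatic amino acids pass down their gradient. The Slc6 family holds sodium- and chloride-coupled carriers of neurotransmitters and osmolytes, among them those for creatine and taurine, on which muscle depends. Slc1 holds glutamate carriers and neutral exchangers, and Slc36 holds proton-coupled carriers that work partly on lysosomes.

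Library totals ran from 19546456 to 23381569 counts in the libraries labelled MP and from 21796564 to 24665024 in those labelled Ctrl. What species or sequence the transgene holds is not given, so its reads may not count at the mouse genes it is named for, and none of those genes was higher in MP past the threshold. Slc2a1 had 8.05 to 13.5 CPM (counts scaled to library size with TMM) in the libraries labelled MP and 12.0 to 23.3 in those labelled Ctrl, Hk2 had 168 to 341 against 156 to 187, and Pfkfb3 had 120 to 542 against 579 to 1585. Pfkfb3 was thus lower in every MP library (log2 fold change -1.52 ± 0.57). None of these 3 passed (edgeR adjusted p = 0.290, 0.381 and 0.196), so each direction below is between libraries as labelled. Muscle fibre markers, among them Ckm and Acta1, were present in all 6 libraries, with the 8 summing to 117015 to 142742 CPM in MP and 112400 to 166688 CPM in Ctrl. Ctrl replicate 1 stood apart, by correlation only narrowly (0.947 to 0.961 with the other 5 libraries on log2 CPM, against 0.962 to 0.988 among those). Its 9 B cell markers summed to 609 CPM against 7.23 to 57.2 CPM elsewhere. Values that turn on that library are followed by those without it.

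Of the 64 members 36 passed the filter on low counts, 22 had counts but too few to test, and 6 had 0 counts in every library. Across the 36 tested members 1 rose and 0 fell past an adjusted p of 0.05 by edgeR. That is 2.78% of them, against 1.3% of all 14973 genes tested (0.788% higher and 0.508% lower). DESeq2 called 4 higher and 0 lower among 35 members to which it gave an adjusted p, or 11.4%, against 7.31% of all genes (4% higher and 3.31% lower). The member that rose was Slc38a10. At an unadjusted p under 0.05 there were 9 members, 8 higher and 1 lower, or 25.0%, against 20.8% of all genes tested. The log2 fold change of MP over Ctrl was positive in 23 of 36 members (63.9%, against 46.6% of all genes tested) and negative in 13, with a median of 0.20 beside -0.03 over all genes tested. CPM did not overlap between the groups in 12 members (33.3%, against 27.4% of all genes), 11 of them higher in MP (30.6%, against 13.8% of all genes) and 1 lower, Slc7a6os (2.78%, against 13.6%). Without Ctrl replicate 1, 3 members were called higher and 2 lower (8.33% and 5.56%), where 6.08% and 6.99% of all genes were. Leaving out any other single library gave 0 members called.

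**Figure D1:**
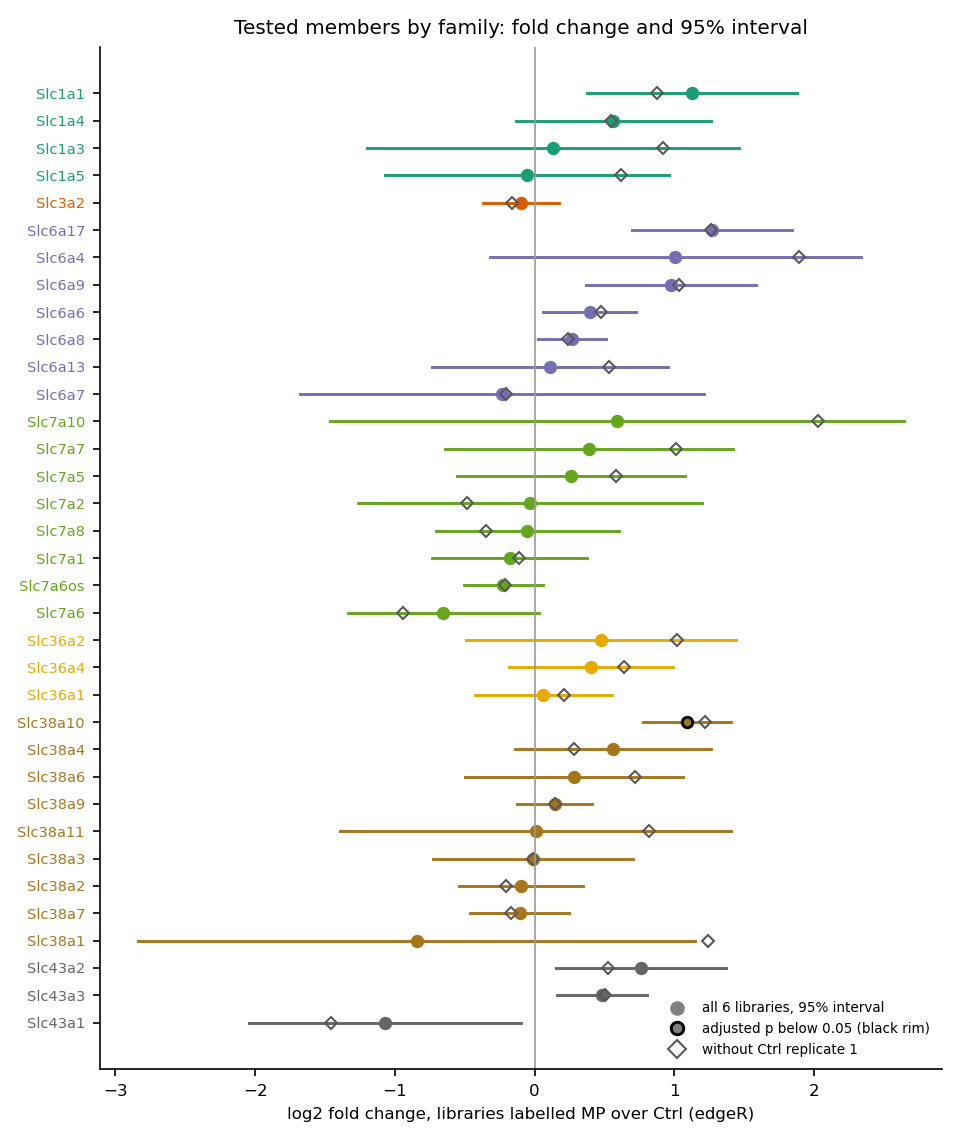
Log2 fold change of MP over Ctrl for 35 of the 36 tested members, grouped and coloured by family, with 95% intervals derived from the F statistic of edgeR's quasi-likelihood test. Open diamonds give the fold change without Ctrl replicate 1; Slc38a10, with the black rim, is the member past the threshold with all 6 libraries.

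Slc38a10 encodes SNAT10, a carrier described in mice as moving glutamine, glutamate and aspartate. The gene (ENSMUSG00000061306) lies on chromosome 11, 120103960 to 120151346 on the minus strand of GRCm38. It had 87.7, 91.1 and 86.5 CPM in MP replicates 1, 2 and 3, against 49.0, 36.4 and 39.4 CPM in Ctrl replicates 1, 2 and 3. The groups were well apart, and the MP libraries lay close together. The means were 88.4 ± 2.36 and 41.6 ± 6.57 CPM (SD, n = 3 each), a log2 fold change of 1.09 ± 0.14 (SE, 95% interval 0.77 to 1.4, edgeR adjusted p = 0.0219). The call held without Ctrl replicate 1 (1.22, adjusted p = 0.00405). It was lost without each of the other 5 libraries in turn, where the fold change stayed between 1.0 and 1.11 and edgeR adjusted p-values ran from 0.0576 to 0.138. In those 5 fits 0 to 54 of all genes were called. Gm11769, on the opposite strand within its span, had only 7 counts in all MP libraries and 3 in all Ctrl libraries.

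Promoters were examined next, as the 250 bases before the annotated start in RefSeq on GRCm38.p6, where 46 of the 64 members had an entry, with 67 promoters in all. Letters searched on both strands were TGATGCAA and its looser form TGATGNAAN, which ATF4, the factor of the amino acid response, is known to bind, and CACGTG, the E-box. The looser form contains the stricter. Of all 32851 promoters 0.791%, 3.44% and 6.02% hold these letters. In the same order, 2, 4 and 9 of the 67 member promoters hold them. Among members they occur at Slc7a7 and Slc7a11 (TGATGCAA), at those and Slc6a21 (TGATGNAAN), and at 9 members including Slc43a1, Slc36a1 and Slc38a7 (CACGTG). The E-box members named here were tested, and the others were not. The 3 promoters below are of the member that rose, of the most abundant Slc43 member, and of the cystine carrier Slc7a11, a textbook ATF4 target. The last was chosen after the search. Capitals mark the letters found, and Slc38a10 holds none of them in this window. The stretches are chr11:120151352-120151601 (minus strand), chr2:84840073-84840322 (plus strand) and chr3:50443614-50443863 (minus strand).
Slc38a10: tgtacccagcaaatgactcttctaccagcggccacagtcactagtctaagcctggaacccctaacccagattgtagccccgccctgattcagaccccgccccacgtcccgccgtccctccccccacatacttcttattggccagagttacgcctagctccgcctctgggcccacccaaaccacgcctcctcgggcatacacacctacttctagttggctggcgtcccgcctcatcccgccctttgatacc
Slc43a1: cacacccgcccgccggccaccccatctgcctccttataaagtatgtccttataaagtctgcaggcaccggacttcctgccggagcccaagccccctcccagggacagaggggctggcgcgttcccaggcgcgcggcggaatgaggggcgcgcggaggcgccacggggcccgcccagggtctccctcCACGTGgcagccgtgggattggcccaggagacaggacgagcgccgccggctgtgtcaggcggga
Slc7a11: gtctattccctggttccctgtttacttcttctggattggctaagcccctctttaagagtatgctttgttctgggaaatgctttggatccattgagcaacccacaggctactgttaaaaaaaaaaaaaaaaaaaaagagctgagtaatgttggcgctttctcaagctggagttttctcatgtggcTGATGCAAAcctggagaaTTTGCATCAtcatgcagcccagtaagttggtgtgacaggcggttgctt

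Levels between genes were compared on the length-scaled FPKM of the deposited table. The 2 most abundant members were Slc7a2, with a mean of 61.5 FPKM over the 6 libraries, and Slc38a4, with 52.8 FPKM. Slc43a1 (28.2), Slc6a8 (24.7) and Slc38a2 (16.7) came next. All members together summed to 307, 319 and 347 FPKM in MP replicates 1, 2 and 3, against 216, 344 and 355 FPKM in Ctrl replicates 1, 2 and 3. Slc7a2 and Slc38a4 made up 18.8% of the low sum of Ctrl replicate 1 and 34.0% to 42.0% of the sums of the other 5 libraries. Beside Ctrl replicates 2 and 3, Slc43a1 was low in Ctrl replicate 1 too, at 14.5 FPKM against 47.3 and 52.8. That shortfall was larger than the one of Slc38a4, which had 24.3 FPKM against 49.3 and 54.2. In MP Slc43a1 had 16.1 to 20.3 FPKM.

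Of the other 8 tested Slc38 members 4 had a positive and 4 a negative log2 fold change, and none passed. Slc38a4, SNAT4, a sodium-coupled carrier of neutral amino acids, had 208, 277 and 320 CPM in MP against 104, 210 and 231 CPM in Ctrl. MP replicate 1 lay level with Ctrl replicates 2 and 3, and the log2 fold change was 0.56 ± 0.30 (SE, edgeR adjusted p = 0.328) and 0.28 without Ctrl replicate 1. Slc38a2, SNAT2, the system A carrier that cells raise when amino acids are short, had 178, 117 and 134 CPM in MP against 130, 180 and 150 CPM in Ctrl. Its groups overlapped throughout (-0.10 ± 0.19, adjusted p = 0.796). Slc38a3, the system N glutamine carrier SNAT3, had 123, 48.8 and 63.2 CPM in MP, while the Ctrl libraries were within 78.0 to 80.3 CPM. MP replicate 1 was above all of them and MP replicates 2 and 3 below all of them.

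Lysosomal members of the family showed small differences. Slc38a9, the lysosomal arginine sensor that signals to mTORC1, had 23.9, 23.6 and 21.2 CPM in MP against 20.7, 21.0 and 20.5 CPM in Ctrl. Its groups did not overlap, but the difference was small (0.14 ± 0.12, 95% interval -0.12 to 0.41, edgeR adjusted p = 0.505). Slc38a7, a lysosomal glutamine exporter, had 10.4 to 12.6 CPM in MP and 11.6 to 13.9 CPM in Ctrl.

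Slc38a1, the system A carrier SNAT1, shows how far Ctrl replicate 1 can set a value. It had 3.72, 3.01 and 3.68 CPM in MP, against 15.6, 1.70 and 1.24 CPM in Ctrl. With all libraries its log2 fold change was -0.85 ± 0.86 (SE, edgeR adjusted p = 0.604). Without Ctrl replicate 1 it was 1.24 ± 0.26 (adjusted p = 0.0281). Lymphocyte markers were high in the same library, where the 9 T cell markers summed to 153 CPM against 0.898 to 5.62 CPM in the other 5. Their part in the value of Slc38a1 was not tested. In bulk RNA, fewer cells of a type and less RNA per cell cannot be told apart. Slc38a6 (2.44 to 5.01 CPM over all libraries) and Slc38a11 (0.142 to 1.33 CPM) were low, and Slc38a5 and Slc38a8 had 0 counts throughout.

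**Figure D2:**
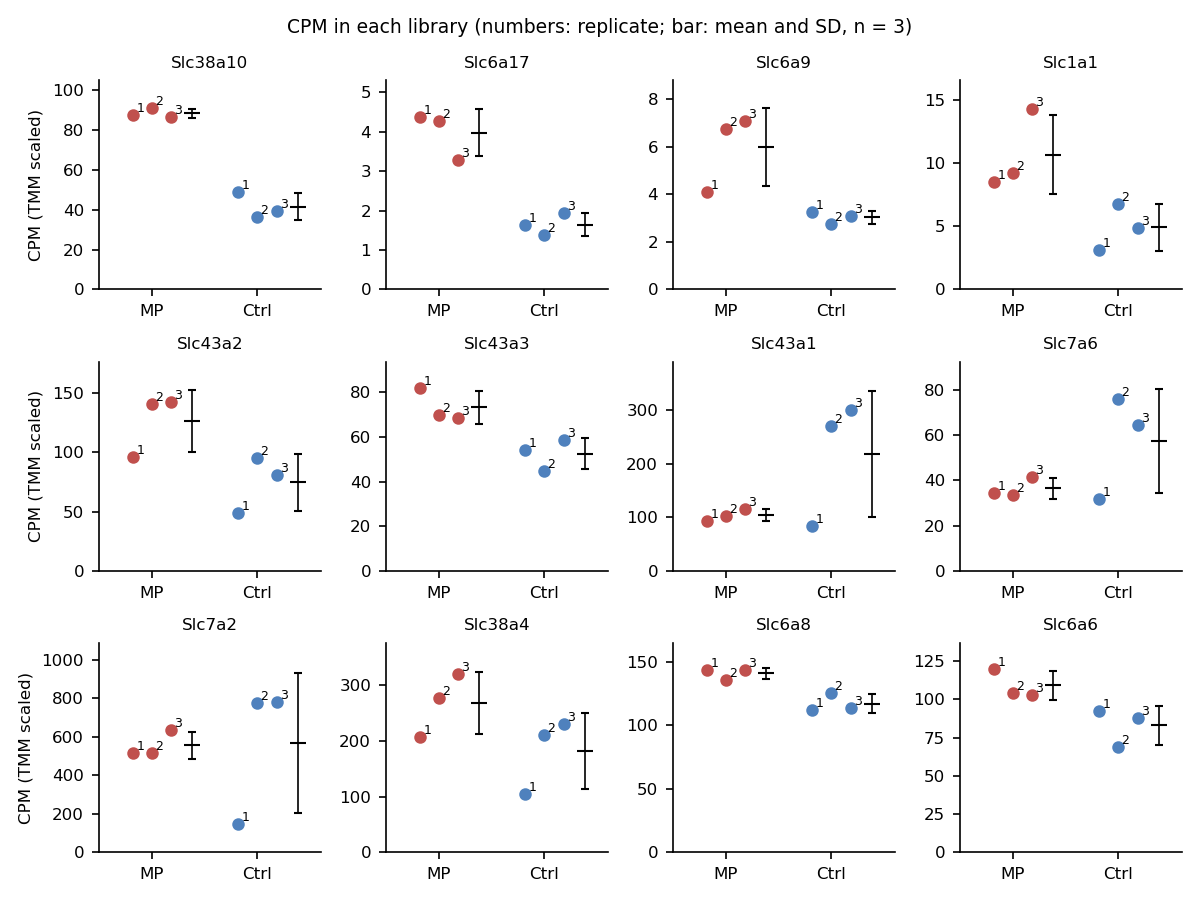
CPM of 12 members in each library, MP left of Ctrl, with the replicate number beside each point and the mean with its SD (n = 3) as a bar. Slc38a10, Slc6a17, Slc6a9, Slc1a1, Slc43a2, Slc43a3, Slc6a8 and Slc6a6 have all MP points above all Ctrl points, while Ctrl replicate 1 lies far below the other Ctrl points for Slc43a1 and Slc7a2.

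Of the 3 Slc43 members Slc43a1 lay lower in mean and the others higher in MP, and none passed. Slc43a2, LAT4, a uniporter of branched-chain and aromatic amino acids, had 96.3, 141 and 142 CPM in MP against 48.5, 94.8 and 80.6 CPM in Ctrl. The groups were apart by a narrow margin, with MP replicate 1 just above Ctrl replicate 2 (log2 fold change 0.76 ± 0.26, edgeR adjusted p = 0.170). The antisense gene Gm45606 within it had 229 counts in MP and 67 in Ctrl, so reads of both may be mixed where strand was not used. Slc43a1, LAT3, a carrier of the same substrates, had 93.0, 103 and 116 CPM in MP against 83.4, 271 and 301 CPM in Ctrl. Ctrl replicate 1 lay below all MP libraries and Ctrl replicates 2 and 3 far above them. With all libraries its fold change on the log2 scale was -1.07 ± 0.42 (interval -2.04 to -0.10 at 95%, edgeR adjusted p = 0.206), and without Ctrl replicate 1 it was -1.46 ± 0.13 (adjusted p = 0.00405). Slc43a1 was not called without any other single library (edgeR adjusted p from 0.364 to 0.452). Slc43a3, a carrier of purine bases, had 81.9, 69.7 and 68.4 CPM in MP against 54.2, 44.8 and 58.6 CPM in Ctrl. All MP libraries were higher, at 0.48 ± 0.14 (adjusted p = 0.126). Endothelial cells are known to make Slc43a3, and the 8 endothelial markers summed to 376 to 715 CPM in MP and 296 to 404 CPM in Ctrl; their part in its level was not tested. Slc43a1 and Slc43a3 are neighbours on chromosome 2, 72984 bases apart.

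Slc43a1 made up 36.8% to 40.7% of the summed FPKM of its family in MP. In Ctrl replicates 2 and 3 it made up 70.9% and 71.4%, and in Ctrl replicate 1 46.2%. Summed over the family, FPKM was 43.8, 47.7 and 49.99 in MP against 31.3, 66.8 and 73.9 in Ctrl (difference of mean log2 sums -0.19, two-sided exact permutation p = 0.7). Without Ctrl replicate 1 the difference was -0.58 (exact permutation p = 0.1, the smallest possible).

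Cationic carriers were led by Slc7a2, CAT-2, which takes up arginine, lysine and ornithine. It had 516, 516 and 637 CPM in MP, against 150, 776 and 781 CPM in Ctrl. Ctrl replicate 1 was at 0.193 times the mean of the other Ctrl libraries and below every MP library, while those other Ctrl libraries were above every MP library. The log2 fold change was -0.03 ± 0.53 (edgeR adjusted p = 0.979), and -0.49 without Ctrl replicate 1 (adjusted p = 0.0642). Slc7a1, CAT-1, which most cell types use for arginine, had 9.71, 5.43 and 9.45 CPM in MP against 10.1, 8.74 and 9.03 CPM in Ctrl, with overlap between the groups. Slc7a3, Slc7a4 and Slc7a14 had at most 11 counts in any library.

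Among the light chains Slc7a8 and Slc7a6 were the most abundant, at means of 10.7 and 10.2 FPKM. Slc7a6, which exchanges arginine or lysine for glutamine with sodium, had 34.2, 33.3 and 41.7 CPM in MP against 31.9, 75.9 and 64.3 CPM in Ctrl. The log2 fold change was -0.65 ± 0.29 with all libraries (edgeR adjusted p = 0.255) and -0.94 ± 0.14 without Ctrl replicate 1 (adjusted p = 0.0138), the library in which it was lowest. Slc7a6 was not called without any other single library (edgeR adjusted p from 0.374 to 0.534). Slc7a6os, its neighbour at a distance of 2010 bases, had 14.8, 15.9 and 14.4 CPM in MP against 17.9, 17.5 and 17.2 CPM in Ctrl. All MP libraries were lower, by a small amount (-0.22 ± 0.12, adjusted p = 0.331). Slc7a8, LAT2, an exchanger of neutral amino acids, had 53.3, 54.4 and 50.8 CPM in MP against 30.2, 65.2 and 69.1 CPM in Ctrl, again with Ctrl replicate 1 below and the others above the MP libraries (-0.05 ± 0.28, adjusted p = 0.939). Without Ctrl replicate 1 its value was -0.35 (adjusted p = 0.0602).

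Slc7a5, LAT1, which exchanges leucine for glutamine in growing cells, was low. It had 6.28, 3.68 and 4.49 CPM in MP against 5.59, 4.16 and 2.30 CPM in Ctrl, and the groups overlapped. Slc7a7 had 2.33 to 3.35 CPM in MP and 0.898 to 3.46 CPM in Ctrl (0.39 with all libraries and 1.01 without Ctrl replicate 1, edgeR adjusted p = 0.644 and 0.0905). It overlaps Oxa1l on the opposite strand, a gene with 4424 counts in MP and 4298 in Ctrl, and its own value is therefore uncertain. Slc7a11, the cystine and glutamate exchanger whose promoter is shown above, had 0, 1 and 4 counts in MP against 34, 2 and 3 counts in Ctrl and was not tested. A count of 3 corresponds to 0.120 to 0.145 CPM in these libraries, and this floor covers counting error only.

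The heavy chain Slc3a2, CD98hc, varied little among the libraries. It had 44.6, 51.7 and 49.1 CPM in MP against 47.3, 54.1 and 54.5 CPM in Ctrl, with a difference of -0.10 ± 0.12 on the log2 scale (95% interval -0.37 to 0.17, edgeR adjusted p = 0.656). The other heavy chain, Slc3a1, which serves cystine uptake in kidney, had at most 5 counts in a library. The FPKM of the 6 light chains that pair with Slc3a2 summed to 1.69, 1.59 and 1.65 times that of Slc3a2 in MP, against 1.38, 2.03 and 1.93 times in Ctrl. The ratio of Slc7a6 alone was 0.592, 0.498 and 0.655 in MP against 0.521, 1.08 and 0.911 in Ctrl. That of Slc7a8 was 0.843, 0.743 and 0.729 in MP against 0.450, 0.851 and 0.894 in Ctrl. The MP libraries therefore lay between Ctrl replicate 1 and the other Ctrl libraries in the summed ratio.

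**Figure D3:**
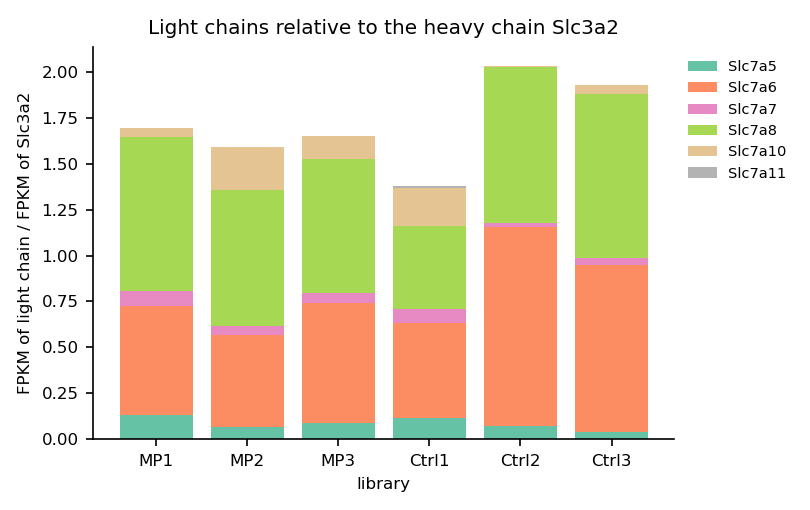
FPKM of each light chain divided by that of the heavy chain Slc3a2, stacked for each library. Slc7a6 and Slc7a8 make up most of every bar, and the bars run from 1.59 to 1.69 in MP and from 1.38 to 2.03 in Ctrl.

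In the Slc6 family 7 of 8 tested members had a positive log2 fold change (87.5%, against 46.6% of all genes) and 5 had no overlap between the groups, all higher in MP (62.5%, against 13.8%). By edgeR 0 of the 8 passed, where 1.3% of all genes did. DESeq2 called 2 of the 8 higher, Slc6a17 and Slc6a9, where it called 7.31% of all genes (4% higher). Some marker sums were also higher in every MP library. Fibro-adipogenic progenitor markers summed to 1074 to 1242 CPM in MP and 657 to 999 CPM in Ctrl, largely Dcn and Col1a1. Satellite cell markers summed to 66.7 to 78.2 CPM in MP and 49.5 to 59.1 CPM in Ctrl. Smooth muscle and pericyte markers summed to 364 to 573 CPM in MP and 285 to 341 CPM in Ctrl, largely Rgs5. By edgeR 2 of 8 satellite cell markers were called and 0 of 8 in each other list, against 1.3% of all genes. Pi16, Vcam1 and Acta2 had negative log2 fold changes (-0.08, -0.02 and -0.19), and the other markers of these lists positive ones. The part of these markers in the members' values was not tested. Slc6a8, the creatine carrier that supplies the phosphocreatine store of muscle, had 143, 136 and 144 CPM in MP against 112, 126 and 114 CPM in Ctrl. Every MP library was higher, at a log2 fold change of 0.27 ± 0.11 (95% interval 0.02 to 0.51, edgeR adjusted p = 0.209). Slc6a6, the taurine carrier, had 120, 104 and 103 CPM in MP against 92.2, 68.7 and 87.9 CPM in Ctrl. It too was higher in every MP library (0.39 ± 0.14, adjusted p = 0.185).

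Slc6a17 and Slc6a9 showed larger differences at much lower levels. Slc6a17, a vesicular carrier of neutral amino acids known from neurons, had 4.38, 4.27 and 3.28 CPM in MP against 1.63, 1.37 and 1.94 CPM in Ctrl. It came next after Slc38a10 by p (1.27 ± 0.25, edgeR adjusted p = 0.0590, DESeq2 adjusted p = 0.00453), and passed without Ctrl replicate 1 (1.26, adjusted p = 0.0291). It missed without any other single library (edgeR adjusted p from 0.141 to 0.204). Slc6a9, the glycine carrier GlyT1, had 4.09, 6.74 and 7.09 CPM in MP against 3.25, 2.74 and 3.09 CPM in Ctrl (0.98 ± 0.26, edgeR adjusted p = 0.108, DESeq2 adjusted p = 0.0327). It overlaps B4galt2 on the opposite strand, which had 295 counts in MP and 186 in Ctrl. Schwann cell and nerve markers, 8 in all, summed to 278 to 459 CPM in MP and 290 to 471 CPM in Ctrl, so these markers overlapped between the groups.

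Several Slc6 carriers of transmitters were low, and some of them came near the floor of detection in some libraries. Slc6a13, which also carries taurine, had 0.881 to 0.992 CPM in MP and 0.599 to 1.29 CPM in Ctrl. Slc6a4, the serotonin carrier, had 18, 30 and 31 counts in MP against 25, 3 and 10 counts in Ctrl (1.01 with all libraries and 1.89 without Ctrl replicate 1, edgeR adjusted p = 0.351 and 0.0622). Slc6a2, the noradrenaline carrier, had 10, 6 and 19 counts in MP against 16, 5 and 6 counts in Ctrl and was not tested. Slc6a7, a proline carrier of brain, had 0.165 to 0.641 CPM in MP and 0.189 to 0.830 CPM in Ctrl. Slc6a19, the neutral carrier of kidney and gut, had 1, 4 and 2 counts in MP against 41, 2 and 1 counts in Ctrl, so Ctrl replicate 1 alone stood out. Slc6a3 and Slc6a5 had 0 counts throughout, and the other 9 untested members of the family had at most 12 counts in a library.

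Summed over the Slc6 family, FPKM was 43.4, 41.5 and 42.9 in MP against 34.5, 33.5 and 33.8 in Ctrl. The groups did not overlap, and the SD within each was 0.993 and 0.533 FPKM (difference of mean log2 sums 0.33, two-sided exact permutation p = 0.1, the smallest that 3 against 3 allows, and 0.35 adjusted over the 7 families). Slc6a8 and Slc6a6 carried nearly all of this sum. The Slc38 sum was 110, 107 and 122 FPKM in MP against 67.1, 95.3 and 97.2 FPKM in Ctrl, also without overlap (difference 0.40, and 0.23 without Ctrl replicate 1, exact permutation p = 0.1, adjusted p = 0.35 with all libraries). In the other 5 families the sums overlapped, with exact permutation p-values from 0.4 to 1 and adjusted values from 0.875 to 1. For Slc7 the sum was 81.6, 84.2 and 97.7 FPKM in MP against 40.0, 121 and 120 FPKM in Ctrl, a difference of 0.07 that turned to -0.46 without Ctrl replicate 1 (exact permutation p = 0.1).

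**Figure D4:**
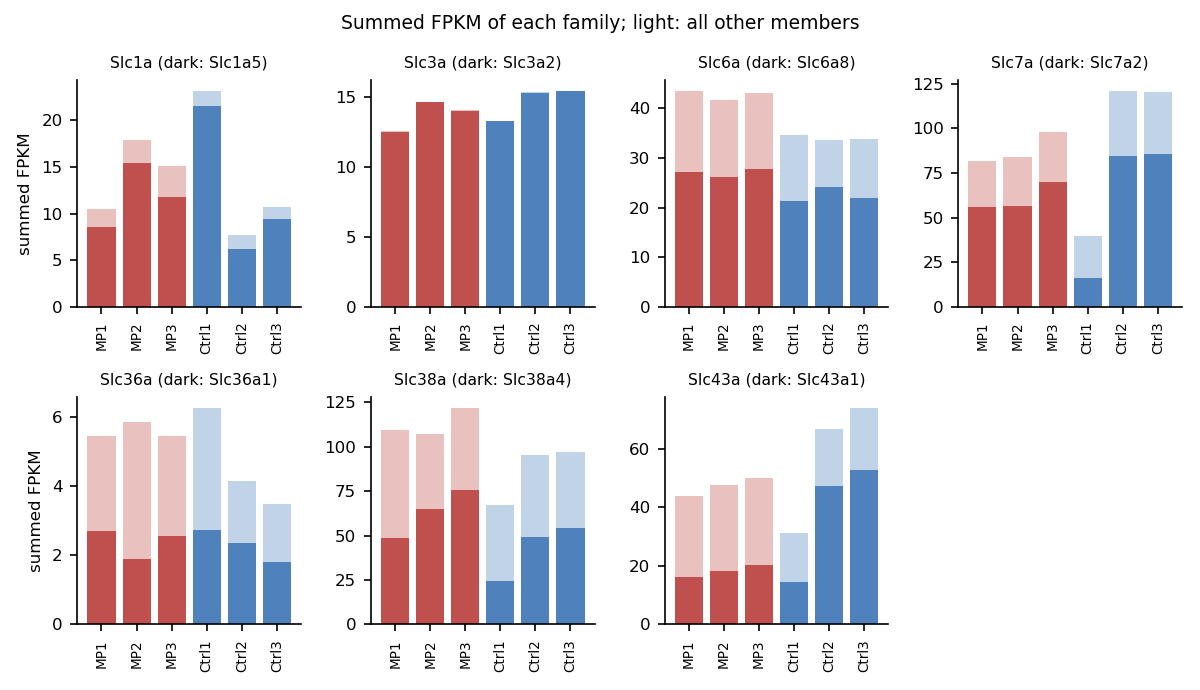
Summed FPKM of each family in each library, with the most abundant member in the dark part of the bar and all other members in the light part. The Slc6a and Slc38a sums are higher in every MP library than in every Ctrl library, and the low Slc7a sum of Ctrl replicate 1 comes from its low Slc7a2.

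Of the Slc1 glutamate carriers Slc1a1 led. Slc1a1, EAAC1, which takes up glutamate, aspartate and cysteine, had 8.51, 9.21 and 14.2 CPM in MP against 3.09, 6.76 and 4.84 CPM in Ctrl. The groups did not overlap, with MP replicate 3 the highest (log2 fold change 1.13 ± 0.32, edgeR adjusted p = 0.124, DESeq2 adjusted p = 0.0227). The protein-coding gene 4430402I18Rik overlaps it on the opposite strand and had 219 counts in MP and 99 in Ctrl, so the value is uncertain. Slc1a3, GLAST, had 2.07, 6.79 and 5.93 CPM in MP against 8.17, 2.36 and 2.81 CPM in Ctrl. Its log2 fold change was 0.13, and 0.92 without Ctrl replicate 1 (edgeR adjusted p = 0.209). Slc1a2, Slc1a6 and Slc1a7 had at most 15 counts in a library and were not tested.

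The neutral exchangers of the family differed in level. Slc1a5, ASCT2, the glutamine exchanger of dividing cells, made up 78.1% to 86.1% of the Slc1 sum in MP and 79.9% to 92.8% in Ctrl. It had 36.3, 64.4 and 48.9 CPM in MP against 90.4, 25.8 and 39.1 CPM in Ctrl, and Ctrl replicate 1 was the highest of all 6 libraries. Its log2 fold change was -0.06 ± 0.44 (edgeR adjusted p = 0.956) and 0.62 without that library (adjusted p = 0.145). Slc1a4, ASCT1, was low, at 0.824 to 0.921 CPM in MP and 0.520 to 0.691 CPM in Ctrl (0.56 ± 0.30, adjusted p = 0.325).

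The proton-coupled Slc36 members were low and overlapped between the groups. Slc36a1, PAT1, a lysosomal carrier of small neutral amino acids, had 15.4, 10.7 and 14.3 CPM in MP against 15.4, 13.2 and 10.1 CPM in Ctrl. Slc36a4, a carrier with high affinity for proline and tryptophan, had 8.10, 6.495 and 6.33 CPM in MP against 6.84, 3.73 and 5.21 CPM in Ctrl (0.40 ± 0.25, edgeR adjusted p = 0.396). Slc36a2 had 4.96, 9.65 and 6.21 CPM in MP against 8.01, 4.06 and 2.77 CPM in Ctrl (0.47 with all libraries and 1.02 without Ctrl replicate 1, edgeR adjusted p = 0.543 and 0.0771). Slc36a2 and the light chain Slc7a10 are both known from fat cells. Slc7a10 had 1.20, 7.22 and 3.72 CPM in MP against 5.88, 0.284 and 1.66 CPM in Ctrl (0.59 with all libraries and 2.03 without Ctrl replicate 1, edgeR adjusted p = 0.733 and 0.137), and both were highest in MP replicate 2 and next highest in Ctrl replicate 1. Slc7a10 overlaps Lrp3 on the opposite strand, a gene with 715 counts in MP and 992 in Ctrl, so the value of Slc7a10 is uncertain. The 8 adipocyte markers summed to 2017, 2039 and 1708 CPM in MP against 1738, 1608 and 1724 CPM in Ctrl, a sum made up largely of Plin4 and Fabp4. Of the 8 markers 5 were highest in the same 2 libraries as these genes, among them Adipoq, with 8.72, 38.4 and 25.8 CPM in MP against 58.1, 8.46 and 16.3 CPM in Ctrl. The part of these markers in Slc36a2 and Slc7a10 was not tested.

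**Figure D5:**
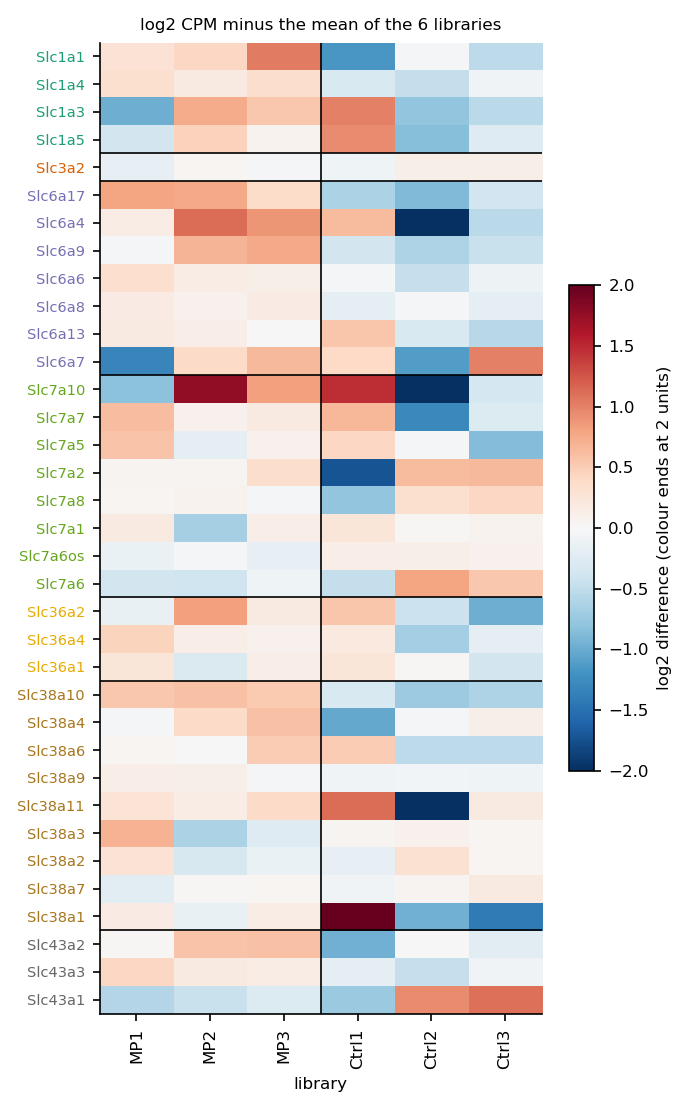
Log2 CPM of 35 of the 36 tested members in each library minus the member's mean over the 6 libraries, with MP libraries left of Ctrl libraries and families separated by lines. Ctrl replicate 1 differs in sign from the other Ctrl libraries for Slc7a2, Slc43a1, Slc38a1, Slc1a5 and Slc7a6, while Slc38a10 has 1 sign in each group.

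Ctrl replicate 1 was the highest library for 8 of the 36 tested members and the lowest for 8, or 44.4% in all, against 39.0% of all genes tested. Ctrl replicate 2 was an extreme about as often, highest for 2 members and lowest for 13, or 41.7% in all, against 47.5% of all genes tested. Other members also lie side by side in the genome. Slc38a1 and Slc38a2 are 44478 bases apart on chromosome 15, and Slc36a2 and Slc36a1 19272 bases apart on chromosome 11.

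Genes that work with these carriers were read from the same fit. Of 30 tested enzymes that use the carried substrates 1 rose and 1 fell (3.33% in each direction, against 0.788% and 0.508% of all genes). Their median log2 fold change was -0.05, beside -0.03 over all genes. At an unadjusted p under 0.05 there were 6 (20.0%, against 20.8%), and DESeq2 called 5 (16.7%, against 7.31%). Without Ctrl replicate 1, 1 was higher (3.33%, against 6.08%) and 5 were lower (16.7%, against 6.99%). Nos1, the nitric oxide synthase of muscle fibres, which uses arginine, rose to 119 ± 15.7 CPM in MP, against 49.1 ± 6.62 CPM in Ctrl (SD, n = 3 each; 1.28 ± 0.15, edgeR adjusted p = 0.0209). Bckdhb, a subunit of the branched-chain keto acid dehydrogenase, fell to 18.9 ± 1.55 CPM in MP, against 39.1 ± 8.52 CPM in Ctrl (-1.05 ± 0.18, adjusted p = 0.0463). Both calls were lost without each library other than Ctrl replicate 1.

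The amino acid response was measured with 22 genes of the GCN2 and ATF4 pathway. By edgeR 0 passed, against 1.3% of all genes. At an unadjusted p under 0.05 there were 6, or 27.3% against 20.8% of all genes. DESeq2 called 2, or 9.09% against 7.31%. A positive log2 fold change was found in 5 of the 22, against 46.6% of all genes. The median was -0.17, beside -0.03 over all genes. Chac1, a glutathione-degrading enzyme induced by ATF4, had the smallest p, at 64.4 ± 35.7 CPM in MP and 214 ± 76.5 CPM in Ctrl (-1.74 ± 0.46, edgeR adjusted p = 0.105). Atf4 itself averaged 187 ± 14.9 CPM in MP and 340 ± 107 CPM in Ctrl (-0.86 ± 0.23, adjusted p = 0.109). Asns, also of this list, went the other way, with 3.84, 2.76 and 2.68 CPM in MP against 1.84, 1.09 and 1.80 CPM in Ctrl. Its log2 fold change was 0.97 ± 0.29 (edgeR adjusted p = 0.135), and 1.10 without Ctrl replicate 1 (adjusted p = 0.0601). Without Ctrl replicate 1, 5 of the 22 were lower past the threshold, Chac1, Atf4, Vldlr, Cebpb and Aars (22.7%, against 6.99% of all genes). Slc7a11 and Slc38a2, both known targets of ATF4, showed no call with or without that library, Slc7a11 because it was not tested.

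Among 35 genes of amino acid sensing at the lysosome 0 passed by edgeR, against 1.3% of all genes. At an unadjusted p under 0.05 there were 4, or 11.4% against 20.8% of all genes. DESeq2 called 1, or 2.86% against 7.31%. The median was -0.13, beside -0.03 over all genes. Without Ctrl replicate 1, 4 were lower (Mios, Tsc1, Flcn and Sesn1, or 11.4% against 6.99% of all genes). Rragd, a Rag GTPase that binds mTORC1 to the lysosome, had the smallest p with all libraries, at 250.2 ± 26.6 CPM in MP and 184 ± 14.8 CPM in Ctrl (0.45 ± 0.13, edgeR adjusted p = 0.130). Of 13 tested amino acid carriers of other families 0 passed by edgeR, at an unadjusted p under 0.05 or by DESeq2. The shares of all genes were 1.3%, 20.8% and 7.31%. Without Ctrl replicate 1, 1 of the 13 was higher (7.69%, against 6.08% of all genes) and 0 were lower (against 6.99%). The median of these carriers was -0.08, beside -0.03 over all genes. The mitochondrial aspartate and glutamate carrier Slc25a12 had the smallest p of these, at 537 ± 97.8 CPM in MP and 444 ± 85.7 CPM in Ctrl (0.27 ± 0.20, adjusted p = 0.465).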

How the data were processed

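RNA from each gastrocnemius was prepared with Trizol, and 3 µg entered an NEBNext Ultra library, per the labels' protocols. HISAT2 2.0.5, featureCounts 1.5.0-p3 and GRCm38 are named per the submitters' processing notes, and the strand setting is not given in the sources used here. The authors deposited raw read counts per gene and their own FPKM values. Groups and replicate numbers came from the sample titles.

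The count test was the quasi-likelihood test of edgeR 4.0.16 (R 4.3.3), two-sided, with TMM scaling and filterByExpr. P-values were adjusted by the Benjamini-Hochberg method over 14973 genes, at a threshold of 0.05. CPM uses TMM library sizes, and errors after a log2 fold change are SE. Alternatives were DESeq2 1.42.0, limma 3.58.1 (voom, log2(FPKM + 1) and log2(FPKM + 0.1)), other scalings, filters and thresholds, a replicate block and leaving out each library. The fit was tested on simulated data. Members and lists were chosen with earlier results of these data known. Named by rule were members past the threshold and, in each family, the 2 most abundant and the smallest p, and for related lists the genes past the threshold or the smallest p. Other members, Atf4, Asns and the genes called without Ctrl replicate 1 were named after their values were seen. Ddit3, on 2 rows, was read from the more abundant. The values of 1 tested member are not reported here, though counts and sums over members include it.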

Additional observations from a re-analysis of the deposited data

How the results depend on the processing

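Slc38a10 was higher in MP under all 17 alternatives (log2 fold change 0.99 to 1.22) and passed in 11; it missed in the 5 fits without a library other than Ctrl replicate 1 and with the replicate block. Leaving out 1 library gave 0 to 3 members called higher, 0 to 2 called lower and 0 to 1956 genes called. DESeq2 called 4 members higher (Slc38a10, Slc6a17, Slc1a1 and Slc6a9) and 1065 genes. The replicate block called 0 members and 5 genes. Deviations of same-numbered libraries had correlations of -0.02, -0.17 and 0.16, within the range of differently numbered ones (-0.17 to 0.18). With 3 libraries per group this cannot decide whether the numbers pair them. An adjusted p of 0.01 left 0 members and 1 gene, and 0.10 gave 2 members and 739 genes. Genes called were 121 on log2(FPKM + 0.1), 112 on log2(FPKM + 1) and 124 with no filter except 1 count. The cause of these differences was not tested.

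Family medians moved with library totals alone to 0.057 (Slc3a), 0.48 (Slc6a), 0.17 (Slc7a) and 0.13 (Slc38a), where the median of all genes was 0.12 in place of -0.03. Of all genes called, 79.2% were higher in MP with library totals alone, against 60.8% with TMM. The Slc6a median was 0.21 on log2(FPKM + 1). The Slc7a median was 0.16 on log2(FPKM + 0.1), 0.091 on log2(FPKM + 1), 0.16 with voom, 0.15 with the replicate block and 0.020 with upper quartile scaling. The Slc38a median was 0.13 on log2(FPKM + 0.1), 0.14 with voom and 0.13 with the block. Without 1 library medians ran from 0.15 to 0.75 (Slc1a), 0.30 to 0.50 (Slc6a), -0.16 to 0.067 (Slc7a) and -0.023 to 0.28 (Slc38a). Without their most abundant member the summed levels turned to -0.20 (Slc7a) and 0.60 (Slc43a). Without 1 library the sums ran from -0.15 to 0.64 (Slc1a), -0.46 to 0.33 (Slc7a) and -0.58 to 0.041 (Slc43a).

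Signs of members that did not pass turned as follows. Library totals alone gave 0.011 for Slc1a5, 0.059 for Slc38a2, 0.13 for Slc38a3, 0.049 for Slc38a7, 0.057 for Slc3a2, 0.20 for Slc7a2 and 0.14 for Slc7a8. On log2(FPKM + 0.1) they were 0.11 for Slc1a5, 0.30 for Slc7a2 and 0.040 for Slc7a8, and on log2(FPKM + 1) 0.088, 0.28 and 0.029 for the same 3. With voom they were 0.11 for Slc1a5, 0.054 for Slc38a1, 0.28 for Slc7a2 and 0.037 for Slc7a8. With the replicate block they were 0.12 for Slc1a5, 0.27 for Slc7a2 and 0.033 for Slc7a8. Upper quartile scaling gave 0.029 for Slc38a3, 0.034 for Slc7a2 and 0.0055 for Slc7a8, and no filter gave 0.0041 for Slc38a3. Without 1 library the ranges were -0.38 to 0.62 for Slc1a5, -0.17 to 0.92 for Slc1a3, -0.084 to 0.21 for Slc36a1, -0.27 to 0.033 for Slc38a2, -0.48 to 0.23 for Slc38a3, -1.32 to 1.24 for Slc38a1, -0.46 to 0.82 for Slc38a11, -0.095 to 0.53 for Slc6a13, -0.62 to 0.25 for Slc6a7, -0.49 to 0.26 for Slc7a2, -0.35 to 0.15 for Slc7a8, -0.10 to 2.03 for Slc7a10, -0.016 to 0.58 for Slc7a5 and -0.30 to 0.042 for Slc7a1. Members under about 1 CPM rest on few counts, and their fold changes are the least certain.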
